A study of Mus musculus with 6 samples.

Results

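The genes described here are 8 members of the regulator of G-protein signalling (RGS) family, Rgs1, Rgs2, Rgs3, Rgs10, Rgs14, Rgs16, Rgs18 and Rgs19, out of 49315 genes counted. They were picked by gene symbol from a study of how neonatal regulatory T cells (Tregs) act on the skin, and Rgs1 and Rgs2 were included as genes tied to tissue residency. Bulk RNA-seq was performed on 3 libraries of neonatal skin Tregs and 3 libraries of neonatal Tregs taken out of skin-draining lymph nodes (SDLNs). All 6 carried the Foxp3-GFP genotype, a reporter in which green fluorescent protein marks cells that express the Treg transcription factor Foxp3, and all were given the same batch number. Live CD45+ CD4+ Foxp3-EGFP+ cells were sorted, with 3 biological replicates pooled per sample, so each value describes a pool and not an animal. CD45 beads were used to select cells before the sort. Both tissues were processed by the paper's tissue digestion methods. These describe enzymes for skin, and mashing for lymph nodes taken for flow cytometry. The 6 libraries are named here by tissue and column letter, A to C, and the same letter in both tissues does not mark a known pair. P-values measure the spread between these pooled libraries only.

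RGS proteins act on the Gα subunits of heterotrimeric G proteins. A receptor such as a chemokine receptor loads Gα with GTP and frees the Gβγ pair, and an RGS protein speeds up the hydrolysis of that GTP, which ends the signal. Rgs1, Rgs2, Rgs3, Rgs16 and Rgs18 belong to the small R4 subfamily, Rgs10 and Rgs14 to the R12 subfamily and Rgs19 to the RZ subfamily. In lymphocytes these proteins are known for damping the response to chemokines, and Rgs1 is a frequent marker of T cells that stay in tissues.

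The libraries differed strongly in depth and in the number of genes they held. Skin libraries had total counts of 3748669 to 11741784 and 2911 to 5317 genes at 1 count-per-million (CPM) or more, against 47243498 to 116158706 counts and 12397 to 13002 genes in SDLN libraries. A count of 0 allows up to 3 counts, taken as the floor, which corresponds to 0.800 CPM in skin A, 0.255 CPM in skin B and 0.332 CPM in skin C. These floors cover counting error only. Against their label, skin A and skin C held next to no reads of the genes used for the sort. Foxp3, on which the cells were sorted, had counts of 0, 330 and 1 in skin A, B and C, and Cd4 had counts of 0, 1861 and 2. Among the genes of the T cell receptor complex, Cd3g was at 888, 663 and 607 CPM in skin A, B and C against 1132 to 1209 CPM in SDLN, and Cd3d was at 198 to 355 CPM in skin against 677 to 926 CPM. Trac was at 217 CPM in skin A and at 944 and 973 CPM in skin B and C, against 1204 to 1427 CPM in SDLN. Cd3e was at 0 in skin A and at 150 and 293 CPM in skin B and C, against 578 to 1063 CPM in SDLN. These 4, and Foxp3 and Cd4 too, were below the SDLN range in every skin library, skin B included. The other T cell and Treg genes, given next, were not. Ctla4, an inhibitory receptor abundant in Tregs, was at 1181, 1322 and 796 CPM in skin A, B and C against 353 to 583 CPM in SDLN and was called higher (edgeR adjusted p = 0.0447). Cd28 was at 531 to 1405 CPM in skin against 365 to 450 CPM in SDLN, and Il2ra was at 534 to 2232 CPM against 748 to 1330 CPM. Ikzf2, a transcription factor of many Tregs, was at 110, 2330 and 1458 CPM in skin A, B and C against 865 to 1404 CPM in SDLN. In what follows, skin stands for the libraries labelled skin Treg, and the tested RGS genes are also given without the skin libraries their values rest on.

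Of the 8 RGS genes, skin A, B and C held 2, 5 and 5 over the floor, and SDLN A, B and C held 7, 8 and 7. Rgs1 was higher in the libraries labelled skin Treg, Rgs14 and Rgs16 were lower, and Rgs2, Rgs3, Rgs10 and Rgs19 did not pass the test. Rgs18 did not pass the low-count filter and was not tested. The test was edgeR's quasi-likelihood F test with Benjamini-Hochberg adjustment over the 13572 genes tested and a threshold of 0.05. Over all of these genes 1.04% were called higher in skin and 45.3% were called lower, and against that background 1 of 7 tested RGS genes was higher and 2 of 7 were lower. The low-count filter keeps genes read well in at least 3 libraries, and Rgs3, Rgs10, Rgs14, Rgs16 and Rgs19 passed it only with the SDLN libraries. The median log2 fold change (skin over SDLN throughout) was -1.58 over the 7 tested RGS genes and -2.21 over all genes tested. In bulk samples, fewer cells of a type and less RNA per cell cannot be told apart.

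**Figure D1:**
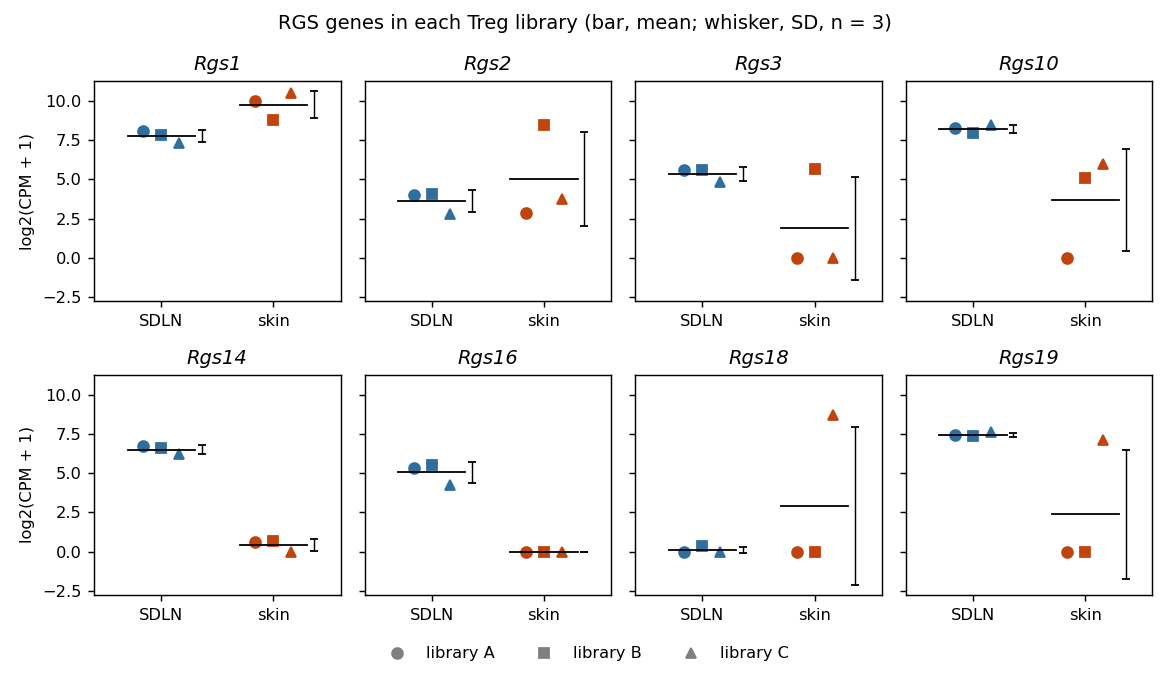
Level of the 8 RGS genes in each library as log2(CPM + 1), with SDLN in blue, skin in orange and the library letter as the symbol. Bars are means and whiskers SDs of these log2 values over 3 libraries. Rgs1 was read in every library with all skin values above all SDLN values, Rgs16 lay at 0 in all skin libraries, and the skin means of Rgs2, Rgs3, Rgs18 and Rgs19 were set by 1 library each.

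Rgs1 encodes an R4 protein that acts on Gαi and Gαq and lowers the migration of lymphocytes toward chemokines. The gene (ENSMUSG00000026358) lies on the minus strand at chr1:144242296-144249242 of GRCm38. Its level was 1016, 439 and 1421 CPM in skin A, B and C, and 271, 229 and 158 CPM in SDLN A, B and C. The lowest skin value was above the highest SDLN value, so the groups did not overlap, and skin B was the closest to the SDLN libraries. Of all genes tested, 2.39% had every skin library above every SDLN library, and Rgs1 was the only RGS member to do so. Skin averaged 958 ± 494 CPM and SDLN 219 ± 56.8 CPM (SD, n = 3 each), a ratio of 4.37. The log2 fold change was 2.18 with a standard error (SE) of 0.636 and an edgeR adjusted p of 0.0342. Among the 141 genes called higher in skin, Rgs1 ranked at 117 by adjusted p. Ordered by CPM among all genes, it held rank 160, 412 and 73 in skin A, B and C, and rank 653, 886 and 1382 in SDLN A, B and C.

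The call for Rgs1 was close to the threshold. The log2 fold change was 2.12 without skin A (edgeR adjusted p = 0.0484), 2.51 without skin B (0.0234) and 1.31 without skin C (0.0979). It was 2.26, 2.13 and 1.86 without SDLN A, B and C, with edgeR adjusted p-values of 0.0830, 0.10 and 0.118. All 6 of these values were positive, and the call was kept without skin A or skin B only. With no low-count filter the adjusted p was 0.175, and with upper-quartile scaling the log2 fold change was 8.66 (0.0925).

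**Figure D2:**
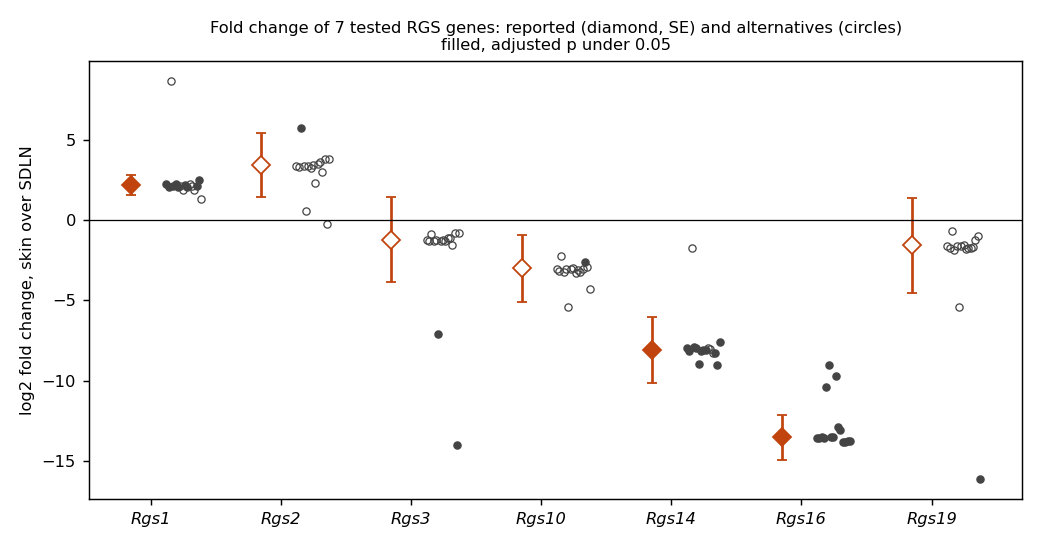
Log2 fold change of the 7 tested RGS genes, skin over SDLN. Diamonds with SE bars are the reported values, grey circles the values under the alternative settings, and filled symbols have an adjusted p under 0.05. Rgs1 stayed above 0 and Rgs14 and Rgs16 below it throughout, while the circles of Rgs2 lie on both sides of 0. For Rgs16, at 0 in all skin libraries, the fitted value depends on the prior count and is no measure of size.

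Other cell types were read in the skin libraries beside Rgs1. Of 22 macrophage and dendritic cell genes 20 were tested, and 17 were called higher in skin. They were led by Cd74, H2-Ab1 and H2-Aa of the antigen presentation pathway. Over all genes tested, 1.04% were called higher in skin and 45.3% lower. This list and the following ones were chosen with earlier results of these data known. The macrophage and dendritic cell list summed to 34916 to 63707 CPM in skin against 447 to 781 CPM in SDLN. Of 25 immediate-early and heat-shock genes, which are known to rise when tissue is digested, 11 were called higher in skin, with sums of 19475 to 40772 CPM against 6168 to 7669 CPM. The 10 T cell and Treg genes summed to 5358 to 8186 CPM in skin and 6791 to 8519 CPM in SDLN, with 1 called higher. The part of myeloid RNA and of the digestion genes in the level of Rgs1 was not tested.

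Rgs1 was also set against genes of each kind within a library. Divided by the sum of Cd3g, Cd3d and Trac, all parts of the T cell receptor complex, Rgs1 gave 0.779, 0.224 and 0.766 for the skin libraries A to C and 0.0819, 0.0760 and 0.0447 for the SDLN libraries A to C. Since Rgs1 was higher and each of these 3 genes lower in every skin library, the ratios could not overlap, and they are given as a description with means of 0.589 ± 0.317 and 0.0675 ± 0.0200 (SD, n = 3 each). Divided by Cd74, the invariant chain of MHC class II, Rgs1 gave 0.0378, 0.0249 and 0.0772 in skin against 0.727, 0.773 and 0.264 in SDLN. Divided by Dusp1, an immediate-early phosphatase, it gave 0.136, 0.110 and 0.341 in skin and 2.35, 2.25 and 1.39 in SDLN. Both of these genes were further apart between the groups than Rgs1, so the lower ratios in skin follow from their levels and are a description too.

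**Figure D3:**
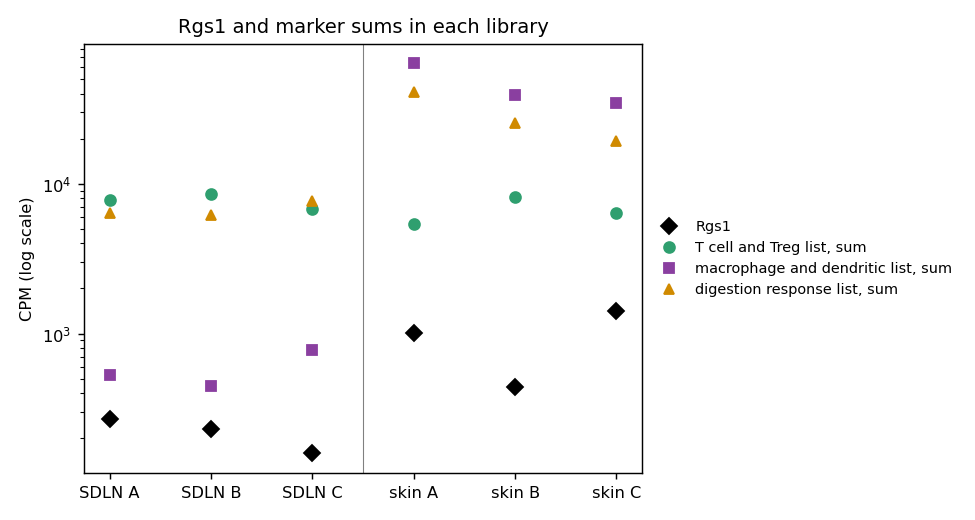
CPM of Rgs1 and summed CPM of 3 gene lists in each library, on a log axis. Rgs1 lies at 158 to 271 CPM in SDLN and at 439 to 1421 CPM in skin. The macrophage and dendritic cell sum and the digestion response sum are higher in every skin library than in every SDLN library, while the T cell and Treg sums of the groups overlap.

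The genes whose pattern over the 6 libraries was most like that of Rgs1 were Tsc22d3 and the kinase genes Map2k3 and Wnk1. They were found by the smallest root mean square difference of centred log2(CPM + 1) values among 8166 genes whose mean reached 10 CPM, which was 0.255, 0.319 and 0.342 for the 3 genes. Tsc22d3, a leucine zipper gene induced by glucocorticoids, was at 557, 263 and 546 CPM in the skin libraries and at 127, 121 and 106 CPM in the lymph node ones. Like Rgs1 it was lowest of the skin libraries in skin B. The measure covers 6 libraries that share a depth gap between tissues, and it is a description of likeness only.

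Rgs2 encodes an R4 protein with a preference for Gαq. The gene (ENSMUSG00000026360) lies at chr1:143999338-144004161 on the minus strand. Its level was 6.14, 349 and 12.5 CPM in skin A, B and C, from counts of 23, 4103 and 113, and 14.8, 15.9 and 5.91 CPM in SDLN A, B and C. Skin B alone was high, and skin A and skin C lay within the range of the SDLN libraries. Skin averaged 123 ± 196 CPM and SDLN 12.2 ± 5.49 CPM (SD, n = 3 each). The log2 fold change was 3.41 (SE 2.01, edgeR adjusted p = 0.277), and without skin B it was -0.27 (adjusted p = 0.823). The genes most like Rgs2 by the measure used for Rgs1 were Trpv4, 4933439C10Rik and Gm10575, all with 70.3 to 73.7 CPM in skin B and under 2 CPM elsewhere.

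Rgs1 and Rgs2 lie in a run of 5 protein-coding RGS genes on the minus strand of chromosome 1, which spans 776.1 kb. From the start site of Rgs2, the start of Rgs13 lies at 173.2 kb, that of Rgs1 at 245.1 kb, that of Rgs21 at 563.5 kb and that of Rgs18 at 771.3 kb. Rgs13 and Rgs21, which stand on either side of Rgs1, had a count of 0 in all 6 libraries. Genes with reads were therefore separated by genes with none. Of the 3 with reads, Rgs2 was highest in skin B, and Rgs1 and Rgs18 were highest in skin C.

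**Figure D4:**
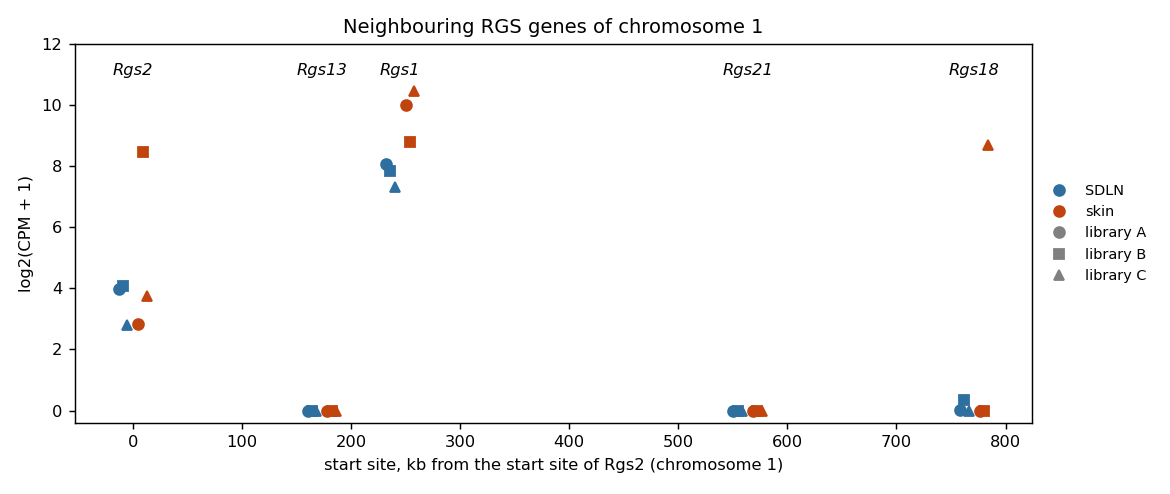
Level of the 5 protein-coding RGS genes of the chromosome 1 run, as log2(CPM + 1), by distance of their start sites from that of Rgs2. Points are single libraries, spread sideways by library for legibility. Rgs1 was high in all 6 libraries, Rgs2 in skin B, Rgs18 in skin C, and Rgs13 and Rgs21 lay at 0.

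Rgs18 encodes an R4 protein best known from platelets and megakaryocytes, and it is also found in myeloid cells. The gene (ENSMUSG00000026357) lies at chr1:144752683-144775435 on the minus strand. It had counts of 0, 0 and 3754 in skin A, B and C and of 1, 20 and 0 in SDLN A, B and C, which is 416 CPM in skin C and at most 0.275 CPM in any other library. Skin C thus held nearly all reads of this gene. The low-count filter removed it, and with no filter its log2 fold change was 10.85 (edgeR adjusted p = 0.211). It passed the filter with skin A or skin B left out, with a log2 fold change of 11.11 (0.111) or 11.49 (0.0957), and without skin C no skin library held a read. Of 8 platelet genes, Ppbp, Gp9 and Gp6 were at 0 in all 6 libraries, and Itga2b and Gp1bb were at the floor in skin. Pf4, a platelet chemokine that macrophages can also express, was at 168, 132 and 192 CPM in skin A, B and C and at most 0.129 CPM in SDLN. Pf4 was at a like level in skin A, B and C. The part of platelet or myeloid RNA in the level of Rgs18 was not tested.

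Rgs16 encodes an R4 protein that is induced in activated T cells and acts on Gαi and Gαq. The gene (ENSMUSG00000026475) lies at chr1:153740349-153745468 on the plus strand, apart from the run described above. No read was counted in the skin libraries, while SDLN A, B and C held 39.1, 45.4 and 18.4 CPM, from counts of 4537, 3307 and 869. Set against the mean of the skin floors, 0.463 CPM, the SDLN mean of 34.3 ± 14.1 CPM (SD, n = 3) makes Rgs16 at least 74.1-fold lower in skin, as far as counting error goes. The edgeR adjusted p was 0.00402, and over 15 alternatives, all of which kept the call, adjusted p-values ranged from 2.17e-13 with DESeq2 to 0.0205 with edgeR without SDLN C. Rgs16 shares 236 exon bases with the antisense gene Gm28513, which had counts of 5, 7 and 3 in SDLN and 0 in skin.

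Absence in skin was common at the SDLN level of Rgs16. Of 6329 genes with 10 to 100 CPM in SDLN, 17.3%, 40.2% and 34.9% were over the floor in skin A, B and C, and 40.5% were over it in none of them. Rgs16 was thus among a large share of genes at that level for which the skin libraries held no reads over the floor.

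The upstream sequences of Rgs2 and Rgs16 are shown because these are chromosome 1 members found in the promoter table, 1 with reads in all skin libraries and 1 with reads in none. Each line gives the 250 bases before the RefSeq start of the gene on GRCm38.p6, 5′ to 3′ on the strand of the gene, at chr1:144004150-144004399 (minus) for Rgs2 and chr1:153740103-153740352 (plus) for Rgs16. Capitals mark half-sites of the cAMP response element, searched as TGACG on both strands.
Rgs2: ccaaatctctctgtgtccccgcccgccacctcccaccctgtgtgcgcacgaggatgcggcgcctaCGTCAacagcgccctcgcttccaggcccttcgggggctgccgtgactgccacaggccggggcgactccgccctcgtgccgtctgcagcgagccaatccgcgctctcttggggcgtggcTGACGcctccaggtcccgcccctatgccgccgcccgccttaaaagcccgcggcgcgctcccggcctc
Rgs16: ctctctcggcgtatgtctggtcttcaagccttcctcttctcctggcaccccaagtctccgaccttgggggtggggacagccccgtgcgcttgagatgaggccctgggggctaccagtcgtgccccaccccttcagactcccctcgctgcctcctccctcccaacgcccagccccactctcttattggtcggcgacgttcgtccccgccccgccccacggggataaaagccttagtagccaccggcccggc
The Rgs2 sequence held 2 half-sites, starting 185 and 67 bases before the start, and the Rgs16 sequence held none. Such a half-site was found in 17.8% of 32851 RefSeq promoters of the same length. Neither sequence held an AP-1 site (TGANTCA, which can share its first letters with the half-site, in 6.7% of promoters) or the NFAT core (GGAAA, in 55.6%), searched on both strands. Promoters of Rgs3, Rgs10 and Rgs19 were also in the table and held no half-site. These matches are descriptions of letters and not of binding.

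Rgs14 encodes an R12 protein that also carries a GoLoco motif, which holds Gαi in its GDP-bound form. The gene (ENSMUSG00000052087) lies at chr13:55369732-55384687 on the plus strand. Its counts were 2, 7 and 0 in skin A, B and C, so that it was over the floor in skin B only, against 105, 94.9 and 72.3 CPM in SDLN A, B and C. The groups were far apart, since skin averaged 0.377 ± 0.328 CPM and SDLN 90.7 ± 16.7 CPM (SD, n = 3 each). The log2 fold change was -8.07 (SE 2.06, edgeR adjusted p = 0.0201). The adjusted p was 0.0340, 0.0185 and 0.00591 without skin A, B and C, and 0.0738, 0.0738 and 0.0619 without SDLN A, B and C, so the call was lost when any SDLN library was left out. With upper-quartile scaling the log2 fold change was -1.77 (adjusted p = 0.651).

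Rgs10 encodes the other R12 protein of the group, a short protein abundant in lymphocytes and microglia. The gene (ENSMUSG00000030844) lies at chr7:128373621-128418758 on the minus strand. Its level was 0, 32.4 and 63.1 CPM in skin A, B and C and 304, 244 and 354 CPM in SDLN A, B and C. All skin values were below all SDLN values, but skin A stood apart from skin B and skin C. Rgs10 had a log2 fold change of -3.01 (SE 2.08, edgeR adjusted p = 0.373). Without skin A it was -2.62, and the adjusted p was then 0.0186. With skin B or skin C left out instead, the edgeR adjusted p was 0.425 or 0.265.

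Rgs19, also called GAIP, encodes an RZ protein that acts on Gαi subunits. The gene (ENSMUSG00000002458) lies at chr2:181688419-181693977 on the minus strand. Its counts were 0, 0 and 1265 in skin A, B and C, and the level of 140 CPM in skin C came close to the 169, 162 and 193 CPM of SDLN A, B and C. The skin values were again all below the SDLN values, with means of 46.7 ± 80.8 and 174 ± 16.2 CPM (SD, n = 3 each). Rgs19 had a log2 fold change of -1.58 (SE 2.94, edgeR adjusted p = 0.834). Without skin C, both remaining skin libraries were at 0, and the edgeR adjusted p of 0.00569 follows from that choice.

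Rgs3 encodes an R4 protein made in several isoforms of different length. The gene (ENSMUSG00000059810) lies at chr4:62559847-62704001 on the plus strand. Its level was 0, 49.5 and 0 CPM in skin A, B and C and 47.9, 46.8 and 27.1 CPM in SDLN A, B and C. Skin B exceeded all SDLN libraries, while the other skin libraries had no reads. Rgs3 had a log2 fold change of -1.23 (SE 2.64, edgeR adjusted p = 0.867). Without skin B only skin libraries with no reads remained, and the edgeR adjusted p of 0.00366 follows from that choice.

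For Rgs2, Rgs3, Rgs18 and Rgs19 a single skin library held nearly all skin reads, skin B for Rgs2 and Rgs3 and skin C for Rgs18 and Rgs19. Rgs10, Rgs14, Rgs16 and Rgs19 had every skin library below every SDLN library, as did 53.6% of all genes tested. Of 2245 genes at 100 to 1000 CPM in SDLN, the range of Rgs10 and Rgs19, 46.1%, 81.5% and 76.0% were over the floor in skin A, B and C, and 19.2% were over it in 1 skin library only, as Rgs19 was.

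The 8 RGS genes summed to 1022, 871 and 2052 CPM in skin A, B and C and to 951, 837 and 829 CPM in SDLN A, B and C, and these sums overlapped. Rgs1 made up 99.3%, 50.4% and 69.2% of the sum in the skin libraries A to C, and 28.5%, 27.3% and 19.1% of it in the SDLN libraries A to C. Its share was above the SDLN range in every skin library, which restates the levels of the members given above. Skin A held only 2 members over the floor.

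**Figure D5:**
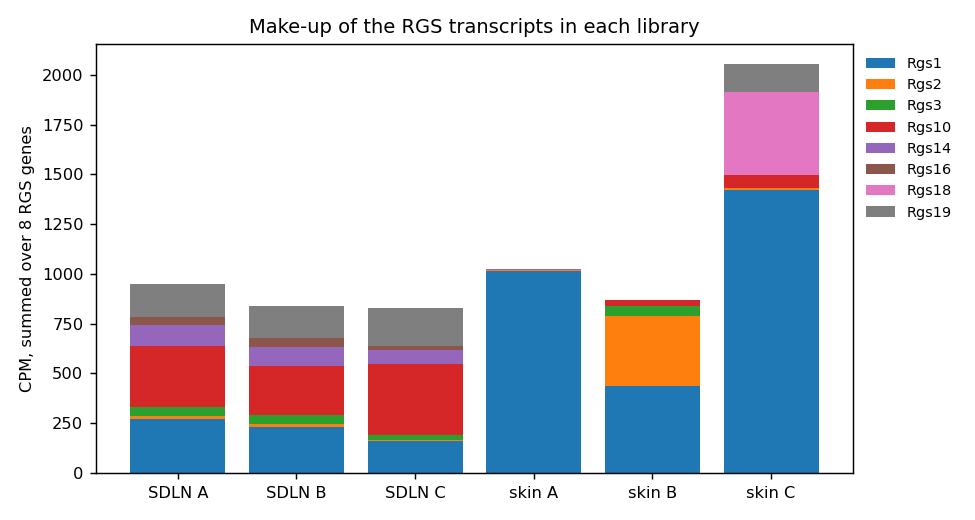
Summed CPM of the 8 RGS genes in each library, stacked by gene. SDLN bars hold mostly Rgs10, Rgs1, Rgs19 and Rgs14, while the skin bars hold mostly Rgs1 in skin A, Rgs1 and Rgs2 in skin B and Rgs1, Rgs18 and Rgs19 in skin C. Rgs1 makes up 50.4% to 99.3% of a skin bar and 19.1% to 28.5% of an SDLN bar.

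To compare levels between genes, CPM was divided by the length of the longest coding transcript in kb. In SDLN Tregs Rgs10 was highest at 342 ± 63.0 CPM per kb, followed by Rgs19 at 115 ± 10.7, Rgs1 at 57.1 ± 14.8 and Rgs14 at 38.5 ± 7.08 CPM per kb (SD, n = 3). Rgs16 at 14.7 ± 6.04, Rgs3 at 8.64 ± 2.49 and Rgs2 at 4.04 ± 1.82 CPM per kb came next, and Rgs18 was last at 0.0465 CPM per kb. The library ranges of the neighbours Rgs1 and Rgs14 overlapped, as did those of Rgs16 and Rgs3, while the other neighbours did not. In skin C the order began with Rgs1 at 370 CPM per kb, Rgs18 at 205, Rgs19 at 92.7 and Rgs10 at 71.7 CPM per kb. In skin B Rgs2 and Rgs1 were nearly level, at 116 and 114 CPM per kb, and in skin A Rgs1 at 264 CPM per kb was followed by Rgs2 at 2.03 CPM per kb, with the other members at or under the floor. Divided by the length of all annotated exons, which for Rgs1 form 1 block over the whole gene, Rgs2 led Rgs1 in skin B at 96.3 against 63.1 CPM per kb, and Rgs18 and Rgs1 were level in skin C at 205 CPM per kb each. On that scale the SDLN ranges of Rgs14 and Rgs16 and of Rgs3 and Rgs2 overlapped too, and those of Rgs16 and Rgs3 did not.

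A further 13 genes of the family, with symbols of Rgs and a number, were checked in the same way, and 0 of the 13 were over the floor in any skin library. Rgs9, Rgs11 and Rgs12 were read in SDLN at 11.3 ± 3.55, 4.98 ± 4.04 and 4.94 ± 1.73 CPM (SD, n = 3), and all 3 were called lower in skin with edgeR adjusted p-values of 0.00322, 0.0345 and 0.00356, beside 45.3% of all genes tested. These 3 passed the low-count filter only with the SDLN libraries. Rgs9 and Rgs11 encode R7 proteins, which work in a complex with the Gβ5 subunit, and Rgs12 is a relative of Rgs14. Rgs5, a marker of pericytes, had counts of 180, 0 and 9 in SDLN A, B and C, and Rgs8 had a count of 9 in SDLN C only. The other 8 genes were at 0 in all 6 libraries. The family in SDLN Tregs was thus made up mainly of 7 of the 8 members above, with reads of Rgs9, Rgs11 and Rgs12.

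The Gα subunits are the substrates of RGS proteins. Of 13 Gα genes 10 were tested, and 0 were called higher and 3 lower in skin, beside 1.04% and 45.3% of all genes tested. The same background holds for the lists that follow, and no list is set apart from it here. The genes called lower in these lists were at or near the floor in skin and passed the low-count filter only with the SDLN libraries, where they were high. Those called lower were Gna11 of the Gq class at 48.6 ± 6.81 CPM in SDLN, Gna12 at 12.2 ± 3.91 and Gna14 at 4.02 ± 1.36 CPM (SD, n = 3), all at or under the floor in every skin library (edgeR adjusted p = 0.00435, 0.00322 and 0.00335). The Gα genes of highest mean level did not pass the test. Gnai3 had 14.4, 587 and 440 CPM in skin A, B and C and 278 to 345 CPM in SDLN. Gnai2, the Gαi subunit through which many chemokine receptors signal, had 1.6, 98.3 and 291 CPM in skin and 120 to 220 CPM in SDLN. Both were far below the SDLN range in skin A, and the skin libraries lay on both sides of that range. Gna13, which couples to RhoA, had 1135, 263 and 297 CPM in skin and 144 to 157 CPM in SDLN, with no overlap, a log2 fold change of 1.69 and an edgeR adjusted p of 0.0761.

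Of 15 Gβ and Gγ genes 9 were tested, with 0 called higher and 3 lower, Gng12, Gnb5 and Gng3. These had 20.0, 6.17 and 2.40 CPM in SDLN and were at or under the floor in all skin libraries. Gnb5 encodes Gβ5, the partner of Rgs9 and Rgs11, which were at 0 in the same libraries. Gnb1, the most abundant of the list, had 187, 1199 and 1883 CPM in skin and 414 to 1448 CPM in SDLN. Gnb2 had 527, 141 and 146 CPM in skin and 60.2 to 129 CPM in SDLN (edgeR adjusted p = 0.348), and Gng5 was at 0 in skin A, at 171 and 77.8 CPM in skin B and C and at 111 to 144 CPM in SDLN.

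Other proteins that switch G proteins or receptors off or on made up a list of 19 genes, all tested, with 0 called higher and 6 lower. Ric8a and Ric8b, chaperones of Gα subunits, were at 75.4 and 13.9 CPM in SDLN, Gpsm2, which binds Gαi through GoLoco motifs, at 39.2 CPM, and Arrb1, a β-arrestin, at 32.1 CPM. These, with the receptor kinases Grk4 and Grk5, were at or under the floor in all skin libraries. The 3 of highest mean level were not called. Arhgef1 had 1007, 296 and 0.332 CPM in skin and 355 to 941 CPM in SDLN, Arrb2 had 293, 521 and 0 CPM in skin and 174 to 218 CPM in SDLN, and Gpsm3 had 191, 129 and 0 CPM in skin and 207 to 250 CPM in SDLN. Each of them was read in skin A and B and at the floor in skin C. Grk3, a receptor kinase chosen after its values were seen, had 135, 73.4 and 153 CPM in skin and 0, 1.18 and 0.191 CPM in SDLN, with a log2 fold change of 8.11 (SE 2.78, edgeR adjusted p = 0.0610).

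Downstream effectors of G proteins formed a list of 21 genes, of which 13 were tested, with 0 called higher and 5 lower. Prkacb, a catalytic subunit of protein kinase A, was at 167 ± 72.8 CPM in SDLN and at the floor in all skin libraries (edgeR adjusted p = 0.00597). Plcb3, a phospholipase C driven by Gq, was at 28.8 CPM in SDLN and Adcy6, an adenylyl cyclase, at 3.74 CPM, and both were at 0 in skin. Pik3r5, which adapts a PI3 kinase to Gβγ, fell from 23.8 to 0.519 CPM, and Pde4d, a phosphodiesterase for cAMP, from 13.3 to 0.278 CPM. Pik3cg, the kinase that Pik3r5 serves, had 742, 0 and 190 CPM in skin and 57.6 to 113 CPM in SDLN, and Prex1 had 0, 248 and 1.55 CPM in skin and 72.8 to 105 CPM in SDLN. Neither was called.

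Of 23 receptors for chemokines and other trafficking signals, all tested, 1 was called higher and 4 lower. Ccr2, the receptor for Ccl2, had 550, 1194 and 926 CPM in skin A, B and C and 142, 235 and 116 CPM in SDLN A, B and C, with no overlap. Skin averaged 890 ± 324 CPM and SDLN 164 ± 62.8 CPM (SD, n = 3 each). The log2 fold change was 2.53 (SE 0.613, edgeR adjusted p = 0.0172). No receptor was called higher, a count of 0, without SDLN A, SDLN C, skin B or skin C, with no filter, with upper-quartile scaling or at a threshold of 0.01. Ccr4, Cxcr5, Gpr15 and Ccr9, at 63.6, 35.7, 19.2 and 4.57 CPM in SDLN, were called lower and lay at the floor in skin. Ccr8, a receptor of skin T cells, had 0.800, 660 and 317 CPM in skin and 322 to 414 CPM in SDLN. S1pr1, the receptor that draws lymphocytes out of tissues, had 18.9, 268 and 0 CPM in skin and 334 to 496 CPM in SDLN, with all skin values below all SDLN values and an edgeR adjusted p of 0.646. The median log2 fold change was 0.39 for the Gα list, -0.81 for Gβ and Gγ, -1.68 for the regulators, -1.27 for the effectors and -0.02 for the receptors, beside -2.21 over all genes tested.

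Beside the macrophage and dendritic cell genes given above, lists of other cell types were checked. The 9 mast cell genes summed to 226, 0 and 0 CPM in skin A, B and C and to 13.7, 28.7 and 13.1 CPM in SDLN A, B and C. The skin sum was mostly Cma1, at 216 CPM in skin A, while Kit and Hdc were at 0 in all skin libraries and called lower there, and Tpsb2, Fcer1a and Gata2 were at 0 in every library. Of the B cell genes, Cd79a and Ms4a1 were at 0 in all skin libraries, and Ighm, the heavy chain of IgM, was at 861, 736 and 583 CPM in skin A, B and C and at 1417 to 1622 CPM in SDLN. The 10 mural cell and fibroblast genes summed to 0, 90.6 and 1.33 CPM in skin A, B and C and to 1.52 to 8.15 CPM in SDLN, with Pdgfra, Cspg4 and Abcc9 at 0. The 8 platelet genes summed to 132 to 192 CPM in skin, nearly all of it Pf4, and to 19.6 to 52.5 CPM in SDLN, nearly all of it Itgb3. Itgb3, an integrin subunit that other cells carry too, was at 0 in all skin libraries and called lower there (edgeR adjusted p = 0.00432). The members of this list went both ways. Like Kit and Hdc, Itgb3 passed the low-count filter only with the SDLN libraries, and 45.3% of all genes tested were called lower. The mural cell and fibroblast sum was highest in skin B, where it was mostly Col3a1 and Col1a2 at 50.5 and 37.0 CPM, and so was Rgs2. The part of these cells in the level of Rgs2 was not tested.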

How the data were processed

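Tregs were sorted and sequenced in pools as 3 skin and 3 SDLN libraries. Per the labels and the methods, the authors trimmed reads with Trimmomatic 0.36, mapped them to GRCm38 with STAR 2.5.2b and counted uniquely assigned exon reads with featureCounts of Subread 1.5.2. What they deposited are counts by Ensembl gene identifier, not normalized. The annotation release, strand setting and handling of duplicates are not given in the sources used here. No molecular identifiers are described, and whether reads copied in PCR were counted separately is not known. Values of overlapping or antisense genes are uncertain. The labels name either selection of polyadenylated RNA or removal of ribosomal RNA. The tissue field reads skin for every sample, so groups came from the sample titles.

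CPM was computed from the total counts of each library, which ranged from 3748669 to 116158706. Symbols and positions came from GENCODE M21, on the same build, which named 49056 of 49315 genes, and promoters from RefSeq on GRCm38.p6. Counts were tested with edgeR 4.0.16 (filterByExpr, TMM, robust glmQLFit and glmQLFTest) in R 4.3.3 with tissue as the only term, and p-values were adjusted over 13572 genes. SEs were derived from the F statistic. The script was tested on simulated data. The common dispersion was 2.04, a biological coefficient of variation of 1.43. Alternatives were other scalings (DESeq2 size factors, TMMwsp, upper quartile, library totals), DESeq2 1.42.0, voom with quality weights in limma 3.58.1, other count filters, counts drawn down to the smallest library, a threshold of 0.01 and each library left out. The members and gene lists were chosen with earlier results of these data known. Named were all members, other Rgs genes over 3 counts, and from each pathway list the called genes (5 of highest mean CPM per direction where there were more) and the 3 of highest mean CPM. From each marker list the leading genes in skin and defining markers at 0 were named.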

Additional observations from a re-analysis of the deposited data

How the results depend on the processing

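No paired analysis was possible because no source ties the lettered columns to the numbered titles, and the replicate block planned earlier was left out. Rgs16 was lower under all 15 alternatives that tested it, and Rgs1 was positive under all 16 and called under 9 of them. The number of RGS genes called higher, 1, became 0 with no filter, under a minimum of 10 counts per library and at the threshold of 0.01, and was 0 to 1 with a library left out (0 without any SDLN library or skin C). The number called lower, 2, became 1 with upper-quartile scaling, 0 under the minimum of 10 counts and 1 at the threshold of 0.01, and was 1 to 3 with a library left out. The filter of 10 counts left 1396 genes, with 81 higher and 9 lower, and the median log2 fold change over all genes moved from -2.21 to 0.08. It also left 0 calls among the Gα, Gβγ, regulator, effector and receptor genes. Drawn down to the smallest library, the Gα and Gβγ lists had 1 call each in place of 3. The regulators had 10 calls with DESeq2 (1 higher, 9 lower) and 5 to 12 with a library left out (12 without skin B), in place of 6. The effectors had 3 calls in place of 5 at the threshold of 0.01. DESeq2 called 404 genes higher in all, against 141. Without skin A, B or C, 324, 193 or 193 genes were called higher, and without SDLN A, B or C, 71, 77 or 81. The median log2 fold change over all genes was -6.10, -7.41 or -7.20 without skin A, B or C, and -4.68 with voom. Upper-quartile scaling gave skin A a factor of 0.0114 and log2 fold changes of 8.66 for Rgs1 (adjusted p = 0.0925), 5.75 for Rgs2 (0.0445) and -1.77 for Rgs14 (0.651). Rgs1 had 2.10 with no filter (0.175) and 1.87 with at least 10 counts in every library (0.0758). Voom gave -7.06 for Rgs3 (0.0196). With a library left out, log2 fold changes ran from 1.31 to 2.51 for Rgs1, -0.27 to 3.83 for Rgs2 (negative without skin B), -13.98 to -0.78 for Rgs3, -4.26 to -2.62 for Rgs10, -8.99 to -7.60 for Rgs14 and -16.11 to -1.0 for Rgs19. DESeq2 gave no adjusted p for Rgs2. The cause of these changes was not tested. The depth of the skin libraries limits what a count of 0 can show to the floors of 0.255 to 0.800 CPM.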
